A study of Mus musculus with 8 samples.

Results

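The genes described here are 10 mouse germline genes, grouped as genes silenced by promoter methylation: Dazl, Ddx4, Mael, Sycp3, Dppa3, Prdm1, Stk31, Tdrd1, Tex101 and Slc25a31. They were taken by symbol from a count table of 50686 gene identifiers, and all 10 were found, each as 1 identifier. RNA was sequenced from mouse embryonic stem cells (mESCs) of the genotypes wild type (R9wt) and Rad9-/- (R9del) cultured in orbit (space) and in a ground control, with harvest on day 1 (D1) or day 5 (D5). Each of the 8 combinations was 1 library, so every comparison set 4 libraries against 4 that differed among themselves in the other variables, and the spread within a group held the effects of those variables. The ground control was grown in a payload of the type that was flown. D1 and D5 cultures sat in separate device groups with their own temperature control and different numbers of seeded cells, so culture duration and device group cannot be told apart. The seeded number also differed between R9wt and R9del at D5. DNA methylation was not measured in this series, so only the RNA side of that grouping could be checked. At the RNA level the genes were not silent, since all 10 were detected in all 8 libraries, and they are called germline genes below.

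In mammals a set of germline genes has CpG-rich promoters that become methylated in the embryo and stay silent in most somatic tissues. In mESCs many of them are also bound by a variant Polycomb complex that holds Pcgf6, the E-box binding pair Mga and Max, and E2f6, and their RNA rises when the DNA methyltransferases or this complex are lost. Rad9 is a subunit of the ring-shaped 9-1-1 clamp that signals DNA damage, and it also acts in meiosis in the testis.

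The promoters are shown first because the members fall into those with and those without a canonical E-box, CACGTG. RefSeq promoter windows on GRCm38.p6, from 250 bases before to 50 bases after the annotated start, were listed for 9 of the 10 genes. Dppa3 was not listed. The first listed window of each gene was searched on both strands for CACGTG (which reads the same on both) and for the E2F-like strings GCGGGAA and CGCGAAA. None of these strings overlapped another in the members' first windows. CACGTG was in the first window of 6 of 9 members (66.7%), against 7.24% of the first windows of 27025 genes. GCGGGAA was in 3 of 9 (33.3%) against 4.66%, and CGCGAAA was in 0 of 9 against 0.844%. The members' first windows held between 15 and 38 CpG, where the median over all 32851 listed windows was 7. Among the 11378 listed windows with at least 15 CpG, 11.3% held CACGTG and 10.3% held GCGGGAA. In the other germline lists the first windows held GCGGGAA in 31.6% of meiotic and 30.8% of testis genes and 7.69% of piRNA pathway genes. They held CACGTG in 30.8% of piRNA pathway genes, 30.8% of testis genes and 21.1% of meiotic genes, and neither string was in the 5 listed windows of germ cell factors. These matches describe letters in a window and not the binding of a factor.

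The E-box began 223 bases before the start in Mael, 93 before in Slc25a31, 55 before in Stk31, 29 before in Ddx4 and 11 before in Tdrd1. Sycp3 had a pair of them, 64 and 43 bases before the start. GCGGGAA was found in Slc25a31, Sycp3 and Ddx4. The windows of Dazl, Prdm1 and Tex101 held none of these strings. The 4 windows of most use for the results below (the gene that passed the adjusted test, the gene with the paired E-boxes, and the other 2 that carry both motifs) and 1 window without an E-box are printed 5′ to 3′ in the direction of the gene, with CACGTG in capitals. Mael is at chr1:166238695-166238994 on the minus strand, Slc25a31 at chr3:40708621-40708920 on the plus strand, Ddx4 at chr13:112652261-112652560 on the minus strand, Sycp3 at chr10:88459337-88459636 on the plus strand and Dazl at chr17:50293571-50293870 on the minus strand.
Mael: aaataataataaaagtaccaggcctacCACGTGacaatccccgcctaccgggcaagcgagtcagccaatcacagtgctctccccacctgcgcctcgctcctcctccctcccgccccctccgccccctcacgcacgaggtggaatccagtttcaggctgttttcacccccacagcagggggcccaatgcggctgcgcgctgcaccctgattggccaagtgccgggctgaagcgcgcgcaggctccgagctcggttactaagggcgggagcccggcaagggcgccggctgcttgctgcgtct
Slc25a31: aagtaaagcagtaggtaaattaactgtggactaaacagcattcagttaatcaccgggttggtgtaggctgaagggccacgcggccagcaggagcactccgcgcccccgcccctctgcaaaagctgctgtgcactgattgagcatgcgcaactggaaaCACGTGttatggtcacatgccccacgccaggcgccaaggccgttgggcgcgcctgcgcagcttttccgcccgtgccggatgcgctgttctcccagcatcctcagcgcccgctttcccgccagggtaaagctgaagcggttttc
Ddx4: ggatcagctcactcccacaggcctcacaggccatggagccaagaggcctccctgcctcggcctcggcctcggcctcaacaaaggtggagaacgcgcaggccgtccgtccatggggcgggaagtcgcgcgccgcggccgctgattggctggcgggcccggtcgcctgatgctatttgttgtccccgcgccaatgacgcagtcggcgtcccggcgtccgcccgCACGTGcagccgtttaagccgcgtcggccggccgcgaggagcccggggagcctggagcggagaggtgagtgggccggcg
Sycp3: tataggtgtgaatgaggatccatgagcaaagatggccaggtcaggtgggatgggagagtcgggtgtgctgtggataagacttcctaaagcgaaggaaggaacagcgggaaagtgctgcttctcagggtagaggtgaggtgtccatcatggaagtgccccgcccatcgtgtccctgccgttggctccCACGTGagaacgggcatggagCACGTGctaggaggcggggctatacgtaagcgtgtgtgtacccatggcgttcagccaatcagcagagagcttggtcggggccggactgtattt
Dazl: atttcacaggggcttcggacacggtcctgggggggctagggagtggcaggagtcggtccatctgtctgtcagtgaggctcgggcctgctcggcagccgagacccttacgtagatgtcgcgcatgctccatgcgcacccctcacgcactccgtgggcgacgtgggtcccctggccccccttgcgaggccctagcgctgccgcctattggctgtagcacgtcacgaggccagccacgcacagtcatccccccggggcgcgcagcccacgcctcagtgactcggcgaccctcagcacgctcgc

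**Figure D1:**
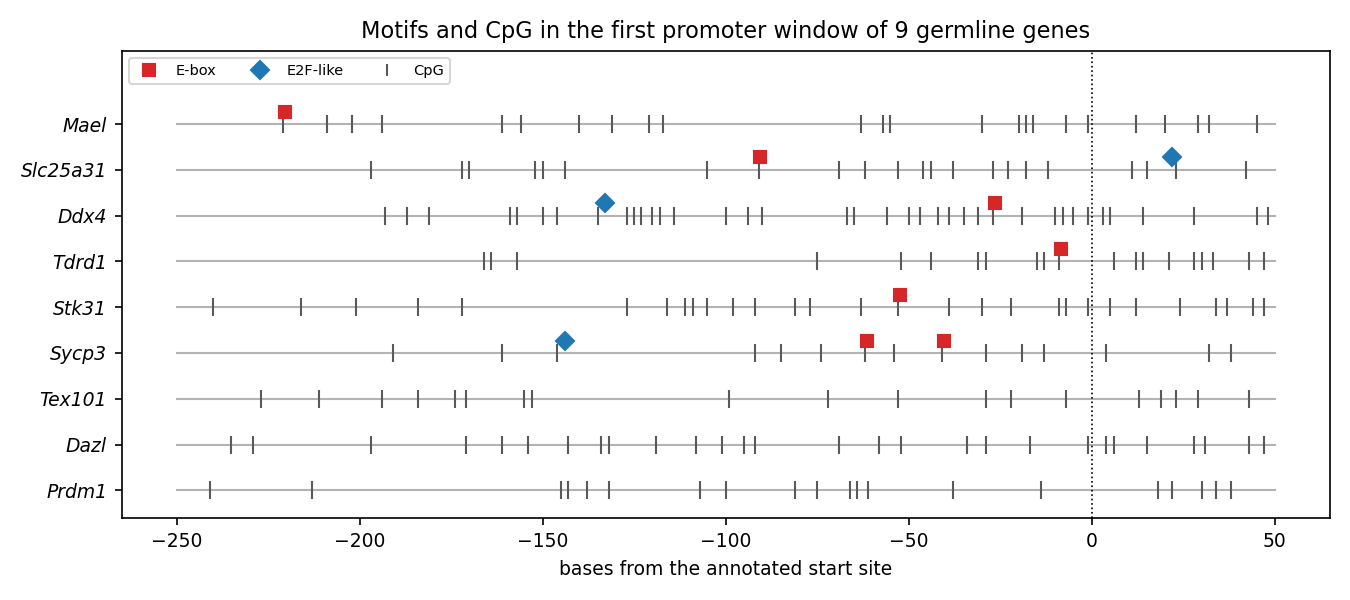
Positions of the E-box CACGTG (red squares), the E2F-like string GCGGGAA (blue diamonds) and CpG (ticks) in the first listed promoter window of 9 members. The horizontal axis gives bases from the annotated start (dotted line), and 6 of the 9 windows hold an E-box while those of Tex101, Dazl and Prdm1 do not.

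Library totals ranged from 58238440 to 96416907 counts. Levels are given as CPM, the count of a gene relative to the library total after TMM scaling (factors from 0.929 to 1.04), and a count of 0 would allow up to 0.0335 to 0.0503 CPM (3 counts), which covers counting error only. Rad9 RNA was 93.4, 85.9, 89.3 and 70.3 CPM in the R9wt libraries (ground D1, ground D5, space D1, space D5) and 23.3, 28.6, 20.8 and 26.9 CPM in the R9del libraries in the same order, so it was lower in every R9del library but not absent. The summed level of 10 mESC markers such as Pou5f1 and Nanog lay between 3628 and 5387 CPM, with Pou5f1 at 958 CPM or more in every library. The summed level of 6 fibroblast feeder markers lay between 22.9 and 50.8 CPM, of which Thy1, which other cells also express, gave 11.8 to 38.7 CPM, Col1a1 3.85 to 10.4 CPM and Col1a2 0.299 to 8.88 CPM, while Col3a1, Postn and Lum were at or below 0.235 CPM in every library. Summed primitive endoderm markers ranged from 16.9 to 147 CPM in R9wt and from 43.7 to 220 CPM in R9del.

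All 10 germline genes gave counts well above the 3-count limit in all 8 libraries, from 65 counts for Tdrd1 in space R9del D5 to 13225 counts for Sycp3 in ground R9wt D5. Per kilobase of exon, which allows genes to be compared, the mean level was 21.7 CPM per kb for Sycp3, 17.8 for Mael and 13.7 for Dppa3, against a median of 5.00 over 15667 genes. Sycp3 stood at percentile 79.5 of those genes and Prdm1, the lowest member, at 21.8. Ddx4 (9.15 CPM per kb) and Tex101 (8.73) were above that median, Dazl (5.17) and Slc25a31 (4.89) were near it, and Stk31 (3.84), Tdrd1 (1.18) and Prdm1 (1.00) were below it. The first rank of Sycp3 and its percentile rest on ground R9wt D5 (116.9 CPM per kb). Without that library the means were 15.7 CPM per kb for Mael, 8.89 for Ddx4, 8.08 for Sycp3 and 7.91 for Dppa3. These are means over 8 different conditions whose standard deviations were as large as 38.8 CPM per kb for Sycp3, so neighbours in this order were not separated by their spread. In bulk RNA, a few cells with much of a transcript and many cells with little of it cannot be told apart.

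**Figure D2:**
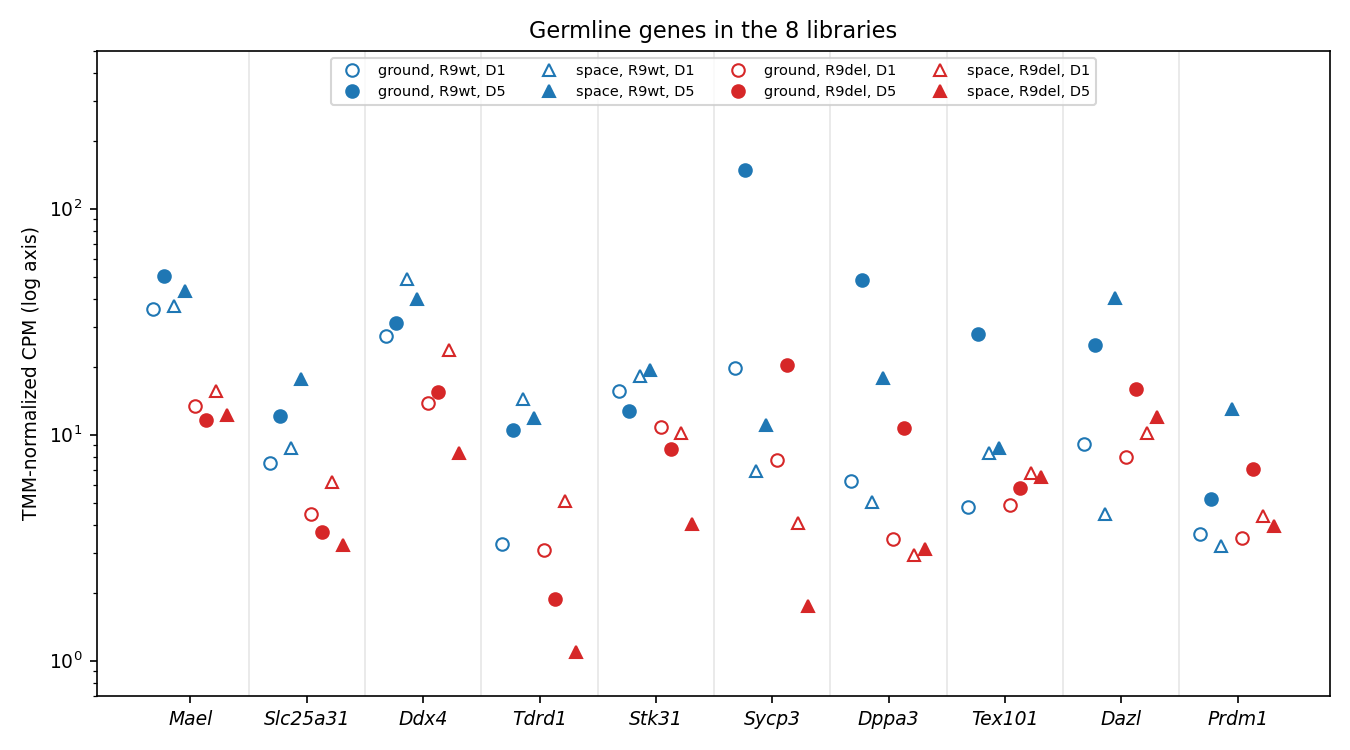
TMM-normalized CPM on a log axis for the 10 germline genes in each library. Blue is R9wt, red is R9del, circles are ground, triangles are space, open symbols are D1 and filled symbols are D5, and for Mael, Slc25a31, Ddx4 and Stk31 all 4 blue points lie above all 4 red ones.

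The comparison of R9del with R9wt asks which RNA levels differ when Rad9 is deleted. Every one of the 10 germline genes had a fitted log2 fold change below 0, from -2.43 for Sycp3 to -0.40 for Prdm1, against 52.8% of the 20473 genes tested. The members' median was -1.31, against -0.05 over all genes tested. By the quasi-likelihood test of edgeR, with Benjamini-Hochberg adjusted p under 0.05 and at least 2-fold change, 1 member fell, Mael, against 2.03% of all genes tested. At an unadjusted p under 0.05 and at least 2-fold, the threshold the study used, 6 of 10 members were lower and 0 were higher, against 7.39% of all genes that were lower and 6.37% that were higher. In 4 members the R9del libraries did not overlap with the R9wt libraries and lay below them, against 7.19% of all genes. In 7 members R9del was lower in all 4 pairs of libraries that shared location and day, against 19.2% of all genes. Those 7 were Ddx4, Mael, Sycp3, Dppa3, Stk31, Tdrd1 and Slc25a31. All 6 members with an E-box in the first promoter window are among them, and Dppa3 had no listed window. The share of all genes with an E-box that were lower in 4 pairs was not computed. Any part of the E-box in this difference was not tested.

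Mael encodes Maelstrom, a germ cell protein of the piRNA pathway that silences transposons. On mm9 the gene is at chr1:168131516-168168875, on the minus strand, with 12 exons. Its level was 36.1, 50.5, 37.2 and 43.3 CPM in R9wt (ground D1, ground D5, space D1 and space D5, the order used throughout) and 13.5, 11.6, 15.7 and 12.2 CPM in R9del. The highest R9del library was under the lowest R9wt library, and relative to its mean Mael was the steadiest member within each genotype, at 41.8 ± 6.62 CPM (SD, n = 4) in R9wt and 13.2 ± 1.80 CPM (SD, n = 4) in R9del. Mael fell 3.11-fold in R9del (log2 fold change -1.64, SE 0.24, edgeR adjusted p = 0.0317). R9wt exceeded R9del by 2.69-fold on the ground at D1, 4.35-fold on the ground at D5, 2.37-fold in space at D1 and 3.54-fold in space at D5. The call was lost when any 1 of 6 libraries was left out, with the log2 fold change between -1.75 (without space R9del D1, adjusted p = 0.0839) and -1.56 (without ground R9wt D5, adjusted p = 0.0708). The highest of these adjusted p was 0.109, without ground R9del D1, and the others were 0.084 without space R9wt D1, 0.0526 without space R9del D5 and 0.0518 without ground R9del D5. In 4 of these 6 fits (without space R9wt D1, space R9del D1, ground R9del D1 or ground R9wt D5) 0 of all genes tested were called, and without space R9del D5 or ground R9del D5 0.496% and 0.443% were. The Mael call held without ground R9wt D1 (adjusted p = 0.041) and without space R9wt D5 (adjusted p = 0.0492).

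Ddx4, the DEAD-box RNA helicase Vasa of germ granules, lies at chr13:113388541-113442518 on the minus strand of mm9. It was at 27.4, 31.2, 48.7 and 39.9 CPM in R9wt and at 13.8, 15.4, 23.7 and 8.27 CPM in R9del, and the groups did not overlap. The log2 fold change was -1.26 (SE 0.35, edgeR adjusted p = 0.0919), so Ddx4 missed the adjusted threshold. It was called when matched pairs formed a block (log2 fold change -1.30, adjusted p = 0.0303), by the fit with location and day as covariates (adjusted p = 0.0462) and by DESeq2's Wald test (adjusted p = 0.017).

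Tdrd1 and Stk31 encode Tudor-domain proteins of germ cells, and Tdrd1 acts with Mael and Ddx4 in the piRNA pathway. Tdrd1 (chr19:56900699-56944502, plus strand, mm9) was at 3.27, 10.5, 14.4 and 11.8 CPM in R9wt and at 3.09, 1.87, 5.09 and 1.09 CPM in R9del. Its groups overlapped because ground R9wt D1 was as low as the R9del libraries, and the ratio of R9wt to R9del ran from 1.06 on the ground at D1 to 10.8 in space at D5. The log2 fold change was -1.83 (SE 0.57, edgeR adjusted p = 0.124), and DESeq2's Wald test alone among the settings called it (adjusted p = 0.0188). Stk31 (chr6:49345603-49419500, plus strand, mm9) was at 15.7, 12.7, 18.1 and 19.3 CPM in R9wt and at 10.9, 8.62, 10.1 and 4.02 CPM in R9del. These groups did not overlap, but the log2 fold change of -0.95 (SE 0.35, edgeR adjusted p = 0.169) was under 2-fold.

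Slc25a31 encodes the ADP/ATP carrier of germ cell mitochondria (Ant4), which stands in for the X-linked carrier during male meiosis. The gene is at chr3:40512777-40529515 on the plus strand of mm9. Its level was 7.46, 12.1, 8.69 and 17.7 CPM in R9wt and 4.44, 3.72, 6.20 and 3.25 CPM in R9del, without overlap. The log2 fold change of -1.37 (SE 0.37) had an edgeR adjusted p of 0.0856, and DESeq2's Wald test called it (adjusted p = 0.00727). Tex101 encodes a surface glycoprotein of germ cells and lies at chr7:25453031-25457069 on the minus strand of mm9. It was at 4.80, 27.8, 8.27 and 8.75 CPM in R9wt and at 4.89, 5.78, 6.79 and 6.51 CPM in R9del. Apart from the 27.8 CPM of ground R9wt D5, the other 7 libraries lay between 4.80 and 8.75 CPM, and the log2 fold change of -1.02 (SE 0.50, edgeR adjusted p = 0.285) became -0.29 without that library.

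Sycp3 encodes a component of the lateral elements of the synaptonemal complex, which pairs chromosomes in meiosis. On mm9 it is at chr10:87922314-87935981 on the plus strand. Its level was 19.7, 148, 6.93 and 11.1 CPM in R9wt and 7.74, 20.3, 4.05 and 1.74 CPM in R9del. Ground R9wt D5 stood far above every other library, and R9del was lower in each of the 4 pairs. The log2 fold change was -2.43 (SE 1.04, edgeR adjusted p = 0.227), -1.90 with the matched pairs as a block (adjusted p = 0.0279) and -0.57 without ground R9wt D5 (adjusted p = 0.741). Of the Sycp3 exon length, 52.2% overlaps Chpt1 on the opposite strand, and whether the counting used strand is not given in the sources used here. Chpt1 was at 4.75, 11.3, 3.87 and 3.16 CPM in R9wt and 4.52, 3.87, 2.16 and 2.41 CPM in R9del. Like Sycp3, it was highest in ground R9wt D5, lower in R9del in every pair, and lower in space than on the ground in every pair. How far reads of one were counted for the other was not tested.

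Dppa3, also called Stella, marks primordial germ cells and naive mESCs and protects maternal methylation after fertilization. It lies at chr6:122576428-122580290 on the plus strand of mm9. Its level was 6.24, 48.3, 5.05 and 17.9 CPM in R9wt and 3.44, 10.7, 2.93 and 3.14 CPM in R9del. Each R9del library was lower than its R9wt partner. The groups overlapped because ground R9del D5 (10.7 CPM) lay above both R9wt D1 libraries (6.24 and 5.05 CPM). The log2 fold change was -1.92 (SE 0.74, edgeR adjusted p = 0.19), -1.57 with the matched pairs as a block (adjusted p = 0.0397) and -0.95 without ground R9wt D5 (adjusted p = 0.473). Of its exon sequence, 27.6% of the 50-base words occur elsewhere in the mm9 genome. Part of its count may therefore depend on how the authors placed reads from near-identical copies, which was not tested.

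Dazl, an RNA-binding protein that controls translation in germ cells, and Prdm1 (Blimp1), a transcriptional repressor needed to specify primordial germ cells, had the smallest differences between genotypes. Dazl (chr17:50418719-50432924, minus strand, mm9) was at 9.05, 24.8, 4.43 and 40.1 CPM in R9wt and at 8.00, 16.0, 10.2 and 12.0 CPM in R9del. R9del was lower in 3 of 4 pairs, and in space at D1 it was 2.29-fold higher (log2 fold change over all libraries -0.75, SE 0.59, edgeR adjusted p = 0.516). Without space R9wt D5 the log2 fold change of Dazl was -0.11. Prdm1 (chr10:44156983-44248307, minus strand, mm9) was at 3.64, 5.19, 3.21 and 12.9 CPM in R9wt and at 3.50, 7.04, 4.38 and 3.94 CPM in R9del. It was lower in 2 of 4 pairs (log2 fold change -0.40, SE 0.48, edgeR adjusted p = 0.691), and without space R9wt D5 its log2 fold change was 0.25.

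**Figure D3:**
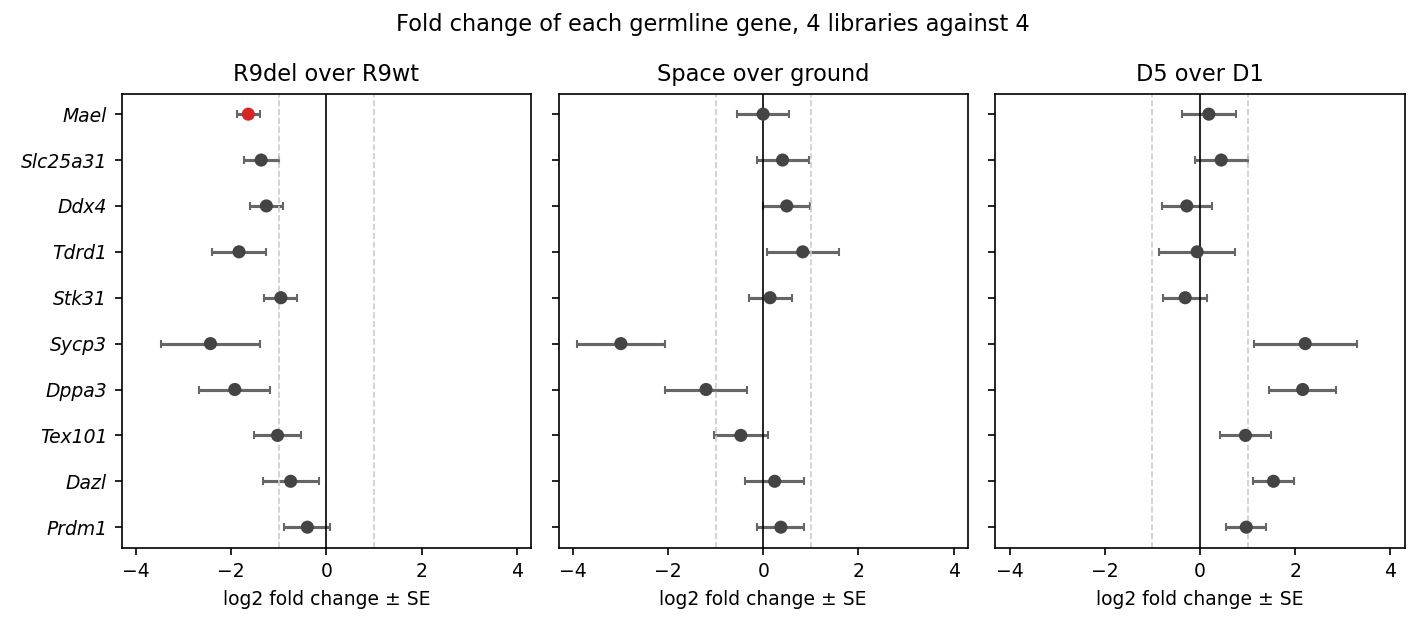
Log2 fold change with its standard error (bars) from edgeR for each germline gene, R9del over R9wt, space over ground and D5 over D1, each 4 libraries against 4. Red marks an adjusted p under 0.05 with at least 2-fold change, which Mael alone passed (in R9del against R9wt), and dashed lines mark 2-fold.

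Markers of the two-cell-like state moved with genotype. Of 6 markers sought for this state, which a few mESCs enter, 4 were found in the table, and all 4 rose in R9del: Zscan4c (log2 fold change 4.85, edgeR adjusted p = 0.0327), Zscan4d (5.38, 0.0317), Zscan4f (4.86, 0.0317) and Usp17lc (4.16, 0.0418). Their summed level was 7.41 to 11.9 CPM in R9wt and 75.4 to 700 CPM in R9del, and these genes belong to families of near-identical copies. These calls too are lost in the 4 fits without 1 library in which 0 of all genes were called. All 4 mesendoderm markers had a log2 fold change below 0, with a median of -1.16, against 52.8% of all genes tested below 0. At the unadjusted p and 2-fold 2 of them were lower, against 7.39% of all genes. These were T (-1.14, edgeR adjusted p = 0.204) and Eomes (-1.17, adjusted p = 0.231). The summed level of the 4 mesendoderm markers was 14.7 to 33.4 CPM in R9wt and 6.18 to 17.0 CPM in R9del. Of 6 primitive endoderm markers 5 had a log2 fold change above 0, and Sox7 had the largest (2.41, edgeR adjusted p = 0.191). No mesendoderm or primitive endoderm marker passed the adjusted edgeR test in this comparison. The part of these cell states in the members' levels was not tested.

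Other germline genes were listed by pathway and counted in the same fit. There 2.03% of all genes were called, and 7.39% were lower and 6.37% higher at the unadjusted threshold. DESeq2's Wald test called 8.68% of all genes. With the matched pairs as a block edgeR called 6.85%, and with covariates 6.02%. Of 15 piRNA pathway genes, 0 were called by edgeR with no block or covariates, and Mov10l1 and Tdrkh were called by DESeq2's Wald test and by edgeR with the matched pairs as a block or with covariates. In that list 3 were lower and 0 higher at an unadjusted p under 0.05 and 2-fold. The largest differences of that list were in Mov10l1, the helicase that feeds piRNA precursors into processing (log2 fold change -1.36, edgeR adjusted p = 0.123), and in Tdrkh, a Tudor-domain partner of Piwi proteins (-1.34, adjusted p = 0.0552). Of 24 meiotic chromosome and recombination genes, 22 passed the filter on low counts and 2 fell, Dmc1 and Msh5. Dmc1, the meiotic recombinase, was 40.1 ± 14.8 CPM (SD, n = 4) in R9wt and 11.4 ± 2.83 CPM (SD, n = 4) in R9del (log2 fold change -1.80, edgeR adjusted p = 0.037). Msh5, which stabilizes crossover intermediates, was 10.1 ± 5.37 CPM (SD, n = 4) in R9wt and 2.39 ± 0.565 CPM (SD, n = 4) in R9del (log2 fold change -2.07, edgeR adjusted p = 0.0447). Stag3, a meiotic cohesin subunit, was called as well under DESeq2, the block and the covariates. Among the meiotic genes at the unadjusted threshold, 5 were lower and 1 higher, and the lower count was 3 without space R9wt D1, ground R9del D1 or space R9del D5, so that 1 library moved it by over 1.5 times.

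Of 8 germ cell factors 7 passed the filter, and Figla, an oocyte transcription factor, fell from 3.68 ± 3.23 CPM (SD, n = 4) in R9wt to 0.180 ± 0.157 CPM (SD, n = 4) in R9del (log2 fold change -4.32, edgeR adjusted p = 0.0492). Single libraries gave 1.23, 7.01, 5.87 and 0.606 CPM in R9wt and 0.105, 0.137, 0.412 and 0.0671 CPM in R9del. The lowest of these lay near the 3-count limit. The receptor Kit had a log2 fold change of -1.38 (edgeR adjusted p = 0.124) and was called under DESeq2, the block and the covariates. Of 14 testis germ cell genes 13 passed the filter, 0 were called by edgeR with no block or covariates, and 2 (Brdt and Zcwpw1) by DESeq2's Wald test, the block and the covariates. Without ground R9wt D1 edgeR called Brdt. At the unadjusted threshold 3 testis genes were lower and 1 higher. Among them Brdt, the testis bromodomain protein, had a log2 fold change of -1.95 (edgeR adjusted p = 0.0572) and Zcwpw1, a histone reader of meiosis, one of -1.36 (adjusted p = 0.0876). The lists' medians were -0.18 for the piRNA pathway, -0.54 for meiotic genes, -0.32 for germ cell factors and -0.43 for testis genes, all below the -0.05 of all genes tested and above the -1.31 of the 10 members. The edgeR calls of Dmc1, Msh5 and Figla held without ground R9wt D1 and were lost when any 1 of the other 7 libraries was left out, which includes the 4 fits in which 0 of all genes were called. With library size alone or with no filter on low counts, Dmc1 alone of the 3 was called.

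Of the 24 genes for DNA methylation enzymes and germline repressors, 0 were called by edgeR or by DESeq2's Wald test in R9del against R9wt, and 0 passed the unadjusted p with 2-fold. Their median log2 fold change was 0.11. Tet2, a methylcytosine oxidase, had the largest (1.00, edgeR adjusted p = 0.342), followed by Mga with -0.95 (adjusted p = 0.168). Mga was at 137, 132, 339 and 216 CPM in R9wt and at 87.5, 125, 135 and 76.7 CPM in R9del, lower in all 4 pairs with overlapping groups.

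**Figure D4:**
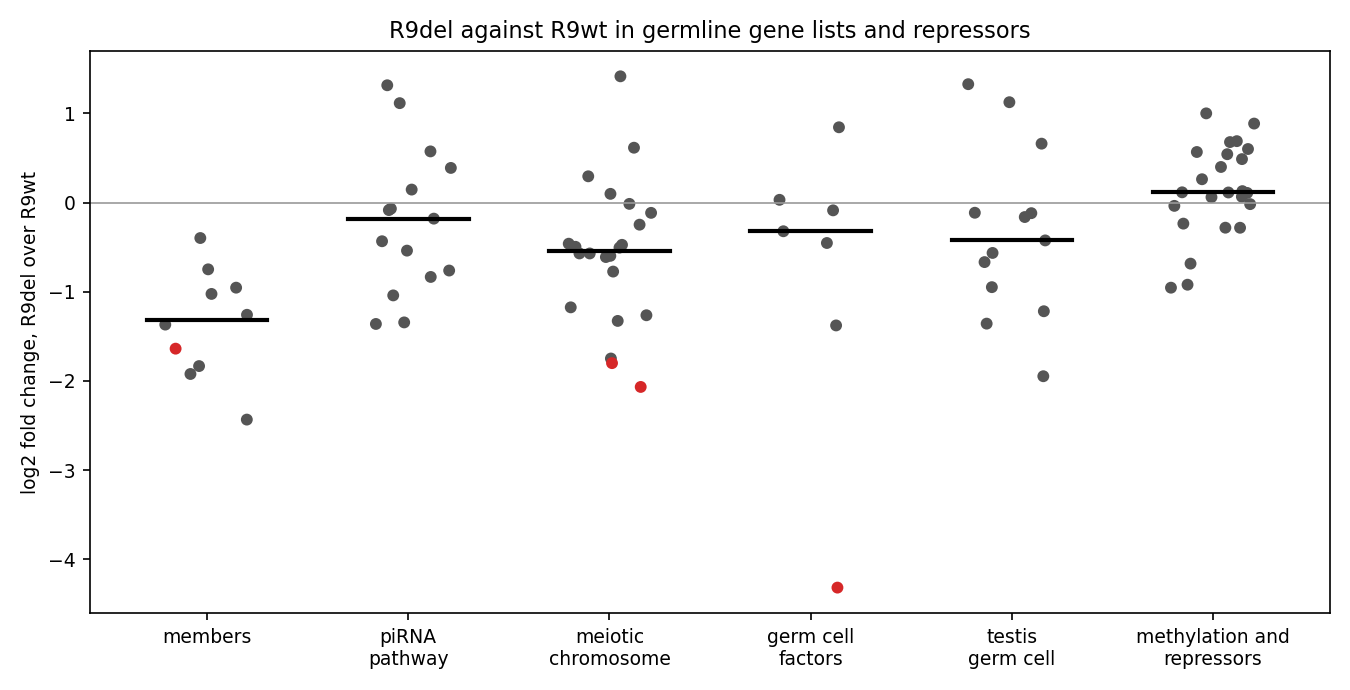
Log2 fold change in R9del over R9wt of each gene that passed the filter, for the 10 members, 4 other germline lists and the DNA methylation and repressor list. Black bars are medians (-1.31 for the members, 0.11 for methylation and repressor genes), and red marks genes past the adjusted threshold: Mael, Dmc1, Msh5 and Figla.

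Space against ground asks what the flight changed in the same cells. By edgeR's quasi-likelihood test 0 of 10 members were called, against 5.41% of all genes, while DESeq2's Wald test called 1 and 1 passed the unadjusted p under 0.05. That member was Sycp3, the 1 member that was lower at the unadjusted p and at least 2-fold, against 7.97% of all genes. Sycp3 and Dppa3 were lower in space in all 4 pairs of libraries that shared genotype and day, against 18.2% of all genes. Across the members the log2 fold change ran from -2.99 for Sycp3 to 0.83 for Tdrd1, with a median of 0.19.

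Sycp3 was at 19.7 and 148 CPM (R9wt D1 and D5) and at 7.74 and 20.3 CPM (R9del D1 and D5) on the ground, against 6.93, 11.1, 4.05 and 1.74 CPM in space. The ground libraries exceeded their space partners by 2.84-fold and 1.91-fold at D1 (R9wt and R9del) and by 13.3-fold and 11.6-fold at D5. The lowest ground library still overlapped with the highest space library. The log2 fold change was -2.99 (SE 0.92, edgeR adjusted p = 0.0957), -2.39 with the matched pairs as a block (adjusted p = 0.0297), -2.38 with genotype and day as covariates (adjusted p = 0.039) and -1.40 without ground R9wt D5 (adjusted p = 0.245). DESeq2's Wald test gave an adjusted p of 0.00365. Chpt1, which overlaps Sycp3 on the opposite strand, was also lower in space in every pair, and its part in these values was not tested.

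Dppa3 was 2.70-fold (R9wt) and 3.41-fold (R9del) higher on the ground than in space at D5, and 1.24-fold and 1.17-fold higher at D1. Its log2 fold change was -1.20 (SE 0.86, edgeR adjusted p = 0.521), and 0.11 when ground R9wt D5 was left out. Mael was the member nearest to no difference, with a log2 fold change of -0.00 (SE 0.55), and its sign depended on the scaling. The other 7 members lay between -0.47 (Tex101) and 0.83 (Tdrd1) with edgeR adjusted p from 0.631 upward. Without ground R9wt D5 the log2 fold change of Tdrd1 was 1.58 (edgeR adjusted p = 0.303). Dazl, Prdm1, Stk31 and Slc25a31 turned from higher in space to lower when space R9wt D5 was left out, with log2 fold changes of -0.66, -0.29, -0.11 and -0.16.

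Whether the genotype difference itself differed between space and ground was tested as an interaction with day as a covariate. By edgeR 0 of 10 members were called, against 0% of the 22561 genes tested, with 0 members at an unadjusted p under 0.05, and DESeq2's Wald test called 0 members as well, against 0.151% of all genes. The members' interaction terms ran from -0.99 for Stk31 to 1.02 for Tex101 on the log2 scale, with standard errors of 0.58 and 0.91.

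Of the 24 genes for DNA methylation enzymes and germline repressors, 3 fell by edgeR in space (12.5%, against 5.41% of all genes tested), the list median being 0.13. No enrichment was tested. With the matched pairs as a block Tet2, a methylcytosine oxidase, was called higher in space as well (log2 fold change without the block 1.09, edgeR adjusted p = 0.312). The 3 that fell were Pcgf6, E2f6 and Ring1. Pcgf6 and E2f6 belong to the variant Polycomb complex named above, of which Mga and Max were not called. Pcgf6 was at 94.0, 65.7, 76.8 and 101 CPM on the ground (R9wt D1, R9wt D5, R9del D1, R9del D5) and at 25.3, 23.0, 22.8 and 20.6 CPM in space (log2 fold change -1.84, SE 0.21, edgeR adjusted p = 0.000489). E2f6 was at 46.4, 39.4, 41.5 and 39.4 CPM on the ground and at 8.14, 15.9, 14.0 and 11.7 CPM in space (log2 fold change -1.71, SE 0.25, edgeR adjusted p = 0.00265). Both were lower in every space library than in any ground library, and both calls held when any 1 library was left out. Ring1, an E3 ligase of Polycomb, was at 19.4, 30.7, 14.2 and 16.0 CPM on the ground and at 5.17, 10.6, 4.65 and 5.42 CPM in space (log2 fold change -1.60, SE 0.37, edgeR adjusted p = 0.0298).

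The Ring1 call was lost when any 1 of space R9wt D1, ground R9wt D1, space R9del D1, ground R9wt D5, space R9del D5 or ground R9del D5 was left out, and 2 repressor genes then stayed called. Dnmt1, the maintenance DNA methyltransferase, was higher in every space library, at 346.5 ± 96.8 CPM (SD, n = 4) against 193.7 ± 18.9 CPM (SD, n = 4) on the ground, but the difference was under 2-fold (log2 fold change 0.87, SE 0.22, edgeR adjusted p = 0.0466). Setdb1 and Ehmt1 were also higher in every space library than in any ground library, and 0 genes of the list rose past the unadjusted p with 2-fold. Without overlap, 3 genes of the list were higher in space and 4 lower, against 5.07% and 9.37% of all genes. Max (0.32), Mga (0.71) and L3mbtl2 (0.43), other subunits of the complex, had edgeR adjusted p between 0.385 and 0.513. Cbx3 was at 353, 260, 272 and 303 CPM on the ground and at 220, 37.7, 257 and 6.81 CPM in space, without overlap and lowest in the space D5 libraries (log2 fold change -1.15, SE 0.82, edgeR adjusted p = 0.515). Yaf2 was lower in space in all 4 pairs with overlapping groups (-0.83, adjusted p = 0.417), and Rnf2 (-0.11), Rybp (0.06) and Tfdp1 (0.14) had adjusted p of 0.795 or above. Ring1, Dnmt1, Setdb1, Ehmt1, Max, L3mbtl2, Cbx3, Yaf2, Rnf2, Rybp and Tfdp1 were named after their values were seen. The part of these changes in the members' levels was not tested. Among the members with an E-box, Ddx4, Tdrd1, Stk31 and Slc25a31 had log2 fold changes in space of 0.49, 0.83, 0.14 and 0.41, Mael of -0.00 and Sycp3 of -2.99. Among those without one, Dazl, Prdm1 and Tex101 had 0.24, 0.37 and -0.47. Dppa3, which had no listed window, had -1.20.

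**Figure D5:**
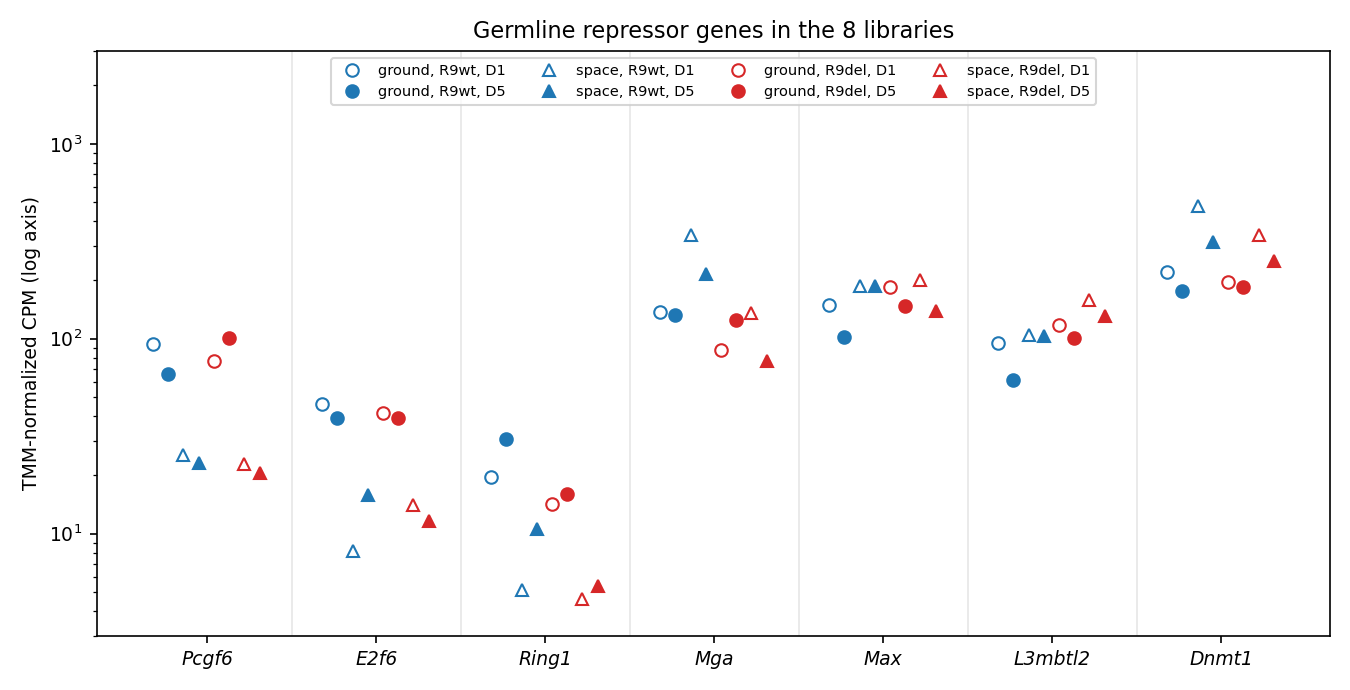
TMM-normalized CPM on a log axis for 7 genes of the methylation and repressor list in each library. Colours and symbols are blue for R9wt, red for R9del, circles for ground, triangles for space, open for D1 and filled for D5, and all triangles of Pcgf6 and E2f6 lie below all of their circles.

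Some cell state markers differed between space and ground. Over all genes tested, 47.1% had a log2 fold change below 0 and the median was 0.05. Of 6 primitive endoderm markers 5 had a log2 fold change above 0 (median 1.29), and Sox17 fell (-3.88, edgeR adjusted p = 0.0187). Pdgfra (1.81, 0.0891) and Dab2 (1.66, 0.254) were higher at the unadjusted threshold, against 2.91% of all genes. Of 4 mesendoderm markers 3 had a log2 fold change below 0 (median -0.72), and 1 was lower at the unadjusted threshold, against 7.97% of all genes. The mESC marker Esrrb rose (1.20, edgeR adjusted p = 0.00635), 1 of 10 in that list to be called, against 5.41% of all genes. Of the 10 mESC markers 6 had a log2 fold change below 0 (median -0.30). Without overlap 2 were lower in space and 1 higher, against 9.37% and 5.07% of all genes. The 4 two-cell-like markers had a median log2 fold change of 1.34. The part of these markers in the levels of the members or of the repressors was not tested.

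In the other lists of germline genes, 0 were called over all 8 libraries by edgeR with no block or covariates or by DESeq2's Wald test in space against ground. At the unadjusted p and 2-fold, 7.97% of all genes were lower in space and 2.91% were higher. By that threshold Mov10l1 was higher (log2 fold change 1.13, edgeR adjusted p = 0.237) in the piRNA list, where Piwil1 had 0.91 (0.435). Kit (1.21, 0.19) was higher among germ cell factors, where Prdm14 had 0.97 (0.369). Kit was called with the matched pairs as a block and with covariates, against 7.07% and 7.72% of all genes. Hormad1 (-1.53, 0.164) was 1 of 2 meiotic genes that were lower, while Tex12 (-1.56, 0.274) missed that threshold. Among testis genes Adad1 (-2.29, 0.254) was lower, and Tex14 had 0.79 (0.147). Levels of Adad1 were low, from 0.683 to 1.12 CPM on the ground and from 0 to 0.582 CPM in space. Adad1 was called by edgeR when space R9wt D1 was left out. However, 0 testis genes were lower at the unadjusted threshold when any 1 of ground R9wt D1, space R9wt D5 or ground R9wt D5 was left out. The same held for space R9del D1, ground R9del D1 or ground R9del D5, and with library size alone.

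D5 against D1 asks how the levels differed with culture time, which here cannot be told apart from the device group. By edgeR's quasi-likelihood test 0 members were called, against 0% of all 20473 genes, and DESeq2's Wald test called 0 members, against 0.44% of all genes. At an unadjusted p under 0.05 there were 3 members, of which 2 were at least 2-fold higher at D5, Dazl and Dppa3, against 2.35% of all genes. Dazl and Dppa3 were also the 2 members higher in all 4 pairs that shared location and genotype, against 10.6% of all genes. Dazl was the 1 member whose D5 libraries all lay above its D1 libraries, against 1.68% of all genes.

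Dazl was at 9.05, 8.00, 4.43 and 10.2 CPM at D1 (ground R9wt, ground R9del, space R9wt, space R9del) and at 24.8, 16.0, 40.1 and 12.0 CPM at D5. The increase was 2.74-fold, 2.00-fold, 9.04-fold and 1.18-fold in these pairs, least in space R9del (log2 fold change 1.54, SE 0.44, edgeR adjusted p = 0.975). Dppa3 was at 6.24, 3.44, 5.05 and 2.93 CPM at D1 and at 48.3, 10.7, 17.9 and 3.14 CPM at D5. Its D5 levels were 7.75-fold, 3.11-fold, 3.54-fold and 1.07-fold those at D1 (log2 fold change 2.16, SE 0.70, edgeR adjusted p = 1). Without ground R9wt D5 the log2 fold change of Dppa3 was 1.25, and it no longer passed the unadjusted threshold. Sycp3 had a log2 fold change of 2.21 (SE 1.08), which was 0.20 without ground R9wt D5. Prdm1 had one of 0.97 (SE 0.42), while those of Ddx4 (-0.28), Stk31 (-0.31) and Tdrd1 (-0.06) were below 0. Space R9del D5, the library with the lowest total (58238440 counts), held the lowest of the 8 levels for 5 members. The share of all genes that were lowest in it was not computed, so this count has no background beside it.

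Of the 6 primitive endoderm markers all 6 had a log2 fold change above 0 in D5 against D1, with a median of 1.32. At the unadjusted p and 2-fold 3 were higher, Gata6 (1.41), Gata4 (1.34) and Dab2 (2.06), with edgeR adjusted p of 0.94 or above. Over all genes tested, 52.5% had a log2 fold change below 0 and 2.35% were higher at that threshold. The summed level of the 6 markers was 16.9 to 66.9 CPM at D1 and 46.2 to 220.0 CPM at D5, and their part in the levels of Dazl and Dppa3 was not tested.

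Among the other lists 0 genes were called by edgeR between D5 and D1, and DESeq2's Wald test called Tuba3a and Tuba3b. The widest differences were in Asz1 (log2 fold change 2.55) and Gtsf1 (1.22) of the piRNA list, Stra8 (1.15) and Tex12 (1.14) of the meiotic list, Sohlh2 (1.16) and Tfap2c (1.13) of the germ cell factors, Tuba3b (2.35) and Ldhc (1.54) of the testis list, and Yaf2 (0.93) and Cbx3 (-0.89) of the repressors. Levels of Asz1 were low, from 0 to 0.483 CPM at D1 and from 0.820 to 1.76 CPM at D5. Of the repressor list 21 of 24 genes had a log2 fold change below 0, with a median of -0.32, against 52.5% below 0 and a median of -0.03 over all genes, and 0 of the 24 passed the unadjusted p with 2-fold.

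The members did not vary together as a single group. As a description over 8 libraries that share 3 design variables, the Pearson correlation of log2 CPM was 0.94 for Ddx4 and Tdrd1, 0.92 for Ddx4 and Stk31 and 0.92 for Mael and Slc25a31. Dazl went with Prdm1 (0.88) and Sycp3 with Dppa3 (0.88), while Dazl was close to unrelated to Stk31 (0.05) and Ddx4 (0.07). The widest range of log2 CPM over the libraries belonged to Sycp3 (6.38) and Dppa3 (4.03), and the narrowest to Prdm1 (2.00) and Mael (2.12). Of 20472 other genes, the 3 whose log2 CPM correlated most with Sycp3 were Fam195b (0.97), Mapk13 (0.97) and Ubqln1 (0.97), and those most like Dppa3 were Slc15a2 (0.99), Col11a2 (0.98) and Thap4 (0.98). Mapk13 was at 173 CPM in ground R9wt D5 and at 83.1 CPM or below elsewhere, and Slc15a2 was at 26.1 CPM there and at 15.7 CPM or below elsewhere, so both shared the high ground R9wt D5 library.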

How the data were processed

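The series holds 8 mRNA-seq libraries of mESCs, 1 for each combination of location, genotype and day. Per the labels and the study's methods, the authors aligned paired-end reads to mm9 with TopHat2 2.0.9 and deposited a table of counts per gene, whole and not normalized. The counting program and its use of strand are not given in the sources used here. Counts were scaled with TMM in edgeR 4.0.16 (R 4.3.3). Genes kept by filterByExpr (minimum count 10) were tested with the quasi-likelihood test, p-values being adjusted over all genes tested. A call needed an adjusted p under 0.05 and a 2-fold change. Because no condition has a replicate, the p-values measure the spread between different conditions. The script was tested on simulated data. Log2 CPM used a prior count of 2. Named genes were the 10 members, the 3 genes most like each of the 2 members with the widest range, and up to 2 genes with the largest change per list and comparison. Genes beyond these were named after their values were seen. The alternatives were DESeq2's size factors, library size alone, no filter, DESeq2 1.42.0, matched pairs as a block, covariates, and leaving out each library. The members and lists were chosen with earlier results of these data known. Gene positions are from the mm9 GENCODE annotation and promoters from RefSeq on GRCm38.p6.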

Additional observations from a re-analysis of the deposited data

Results flagged for a closer look

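Within each set of 4 libraries that share a location, a genotype or a day, the highest and lowest library of each member were compared with the other 3 by Dixon's ratio of gap to range, in 60 sets. The rule marks about 1 set in 20 by chance among like replicates, but here each library enters 3 sets per gene and the 4 libraries of a set differ by design, so that rate does not apply. In 10 sets a library stood apart beyond the 95% critical value for 4 values, and 7 of these were ground R9wt D5. Among the ground libraries, ground R9wt D5 stood apart for Sycp3 (ratio 0.911), Dppa3 (0.838), Tdrd1 (0.838) and Tex101 (0.958). It also stood apart for Sycp3 among the R9wt libraries (0.909) and among the D5 libraries (0.873), and for Tex101 among the D5 libraries (0.865). Among the space libraries, space R9wt D5 stood apart for Dppa3 (0.858) and Prdm1 (0.88). Among the R9del libraries, ground R9del D5 stood apart for Dppa3 (0.934). In each case the library was the highest of its set.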

How the results depend on the processing

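For R9del against R9wt, the number of members called was 1 as reported (2.03% of all genes called), 4 with DESeq2's Wald test (8.68%), 4 with the matched pairs as a block (6.85%), 2 with the other conditions as covariates (6.02%), and 0 to 1 when a library was left out. Members lower at the unadjusted threshold numbered 4 to 7 when a library was left out. For space against ground, 0 became 1 with DESeq2's Wald test, 1 with the block and 1 with covariates (5.41% of all genes against 8.32%, 7.07% and 7.72%), and the unadjusted count was 1 to 2 when a library was left out. For D5 against D1, members higher at the unadjusted threshold numbered 2 to 4 when a library was left out. In the main fits of these comparisons, in this order, 7.39% and 7.97% of all genes were lower and 2.35% higher at that threshold. The shares of all genes at that threshold with a library left out are not given here, so these ranges have no background beside them. Of 420 values for single members, 374 kept direction and side of the threshold. 30 changed sign, 20 of them in space against ground, and the cause was not tested.

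In space against ground, log2 fold changes changed sign for Mael with DESeq2's size factors (0.0072), library size (0.0586), DESeq2 (0.0262), the block (0.0641) and covariates (0.0584), for Stk31 with the block (-0.0501) and covariates (-0.0127), and for Dazl (-0.061) and Tex101 (0.0036) with the block. With a library left out, they ranged from -0.66 to 0.61 for Dazl, -0.32 to 0.43 for Mael, -2.16 to 0.11 for Dppa3, -0.29 to 0.59 for Prdm1, -0.11 to 0.44 for Stk31, -0.75 to 0.57 for Tex101 and -0.16 to 0.80 for Slc25a31. In R9del against R9wt, only Prdm1 changed sign (-0.66 to 0.25). In D5 against D1, those that did were Ddx4 (-0.66 to 0.14), Tdrd1 (-0.57 to 0.73), Mael (-0.20 to 0.46) and Slc25a31 (-0.10 to 0.72). No paired analysis by replicate number was possible because each group has 1 library. The lowest count of a member was 65, and how much of the spread came from counting error was not tested.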
